A study of Mus musculus with 5 samples.

Results

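The genes described here are the 7 cyclin-dependent kinase (CDK) inhibitor genes of the mouse, listed by name and found in the counts table by their Ensembl identifiers. They are 3 genes of the CIP/KIP family (Cdkn1a, Cdkn1b and Cdkn1c) and 4 of the INK4 family (Cdkn2a, Cdkn2b, Cdkn2c and Cdkn2d), out of 55487 genes in the table. RNA was sequenced from HT22 cells, an immortalized mouse line derived from hippocampal neurons, to ask which transcripts change when the long non-coding RNA GAS5 is knocked down (KD). All cultures were of this 1 line, and the cells were transfected with 10 nM of siRNA for 48 h using INTERFERin, a transfection reagent. The KD groups were GAS5 siRNA210 (1 library) and GAS5 siRNA596 (2 libraries), and the control was a negative-control siRNA (NC, 2 libraries). The GEO treatment labels call the NC cells untreated, whereas the titles and the study's methods give NC siRNA. Nothing in the labels says whether libraries of a group came from separate cultures, so *P*-values measure only the spread between these libraries.

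CDK inhibitors hold back the kinases that drive the cell cycle. The CIP/KIP proteins p21, p27 and p57 bind cyclin and CDK together and act mainly on the CDK2 complexes, whereas the INK4 proteins p16, p15, p18 and p19 bind CDK4 and CDK6 and keep D-type cyclins from activating them. Cdkn1a is a classic target of p53, and Cdkn2a, through p16 and the unrelated protein ARF, is linked to senescence and is often lost or silenced in cell lines that grow without limit.

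RefSeq (GRCm38.p6) gives windows from 250 bases before to 50 after each annotated start for 6 of the 7 genes, and 2 such starts each for Cdkn1a, Cdkn2a and Cdkn2c. Those of Cdkn1a and Cdkn2a are shown, since the main estimate below is that of Cdkn1a and the starts of Cdkn2a lead to different proteins. Capitals mark matches to CATG, 6 bases of any kind and CATG again, which is 1 form of the core of a p53 site whose repeats have no gap between them. Both strands were searched. This pair of CATG tetramers was found in 0.712% of 32851 windows, and among the windows of the inhibitor genes only in that of the upstream Cdkn1a start, at position 203 counted from the 5′ end of the window. A match is a string of letters and not a measured binding site.
Cdkn1a, upstream start, chr17:29090729-29091028, plus strand: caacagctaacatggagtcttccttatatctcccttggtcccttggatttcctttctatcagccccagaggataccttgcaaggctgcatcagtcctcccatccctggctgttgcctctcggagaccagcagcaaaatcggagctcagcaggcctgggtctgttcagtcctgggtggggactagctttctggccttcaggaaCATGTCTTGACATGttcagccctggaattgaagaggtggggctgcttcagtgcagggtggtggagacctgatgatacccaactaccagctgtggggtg
Cdkn1a, downstream start, chr17:29093519-29093818, plus strand: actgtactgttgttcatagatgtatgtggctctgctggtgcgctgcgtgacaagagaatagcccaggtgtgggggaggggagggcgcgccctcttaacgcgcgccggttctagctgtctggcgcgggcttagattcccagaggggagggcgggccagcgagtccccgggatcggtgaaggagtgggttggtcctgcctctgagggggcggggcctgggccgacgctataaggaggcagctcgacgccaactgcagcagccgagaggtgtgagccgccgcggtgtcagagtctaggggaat
Cdkn2a, start of the ARF first exon, chr4:89294570-89294869, minus strand: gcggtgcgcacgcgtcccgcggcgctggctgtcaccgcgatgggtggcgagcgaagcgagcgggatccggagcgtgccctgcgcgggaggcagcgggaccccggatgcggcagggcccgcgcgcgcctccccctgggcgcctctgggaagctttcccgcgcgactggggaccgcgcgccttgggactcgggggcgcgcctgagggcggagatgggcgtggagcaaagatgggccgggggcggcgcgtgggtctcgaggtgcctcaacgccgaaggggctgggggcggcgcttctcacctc
Cdkn2a, start of the p16 first exon, chr4:89282143-89282442, minus strand: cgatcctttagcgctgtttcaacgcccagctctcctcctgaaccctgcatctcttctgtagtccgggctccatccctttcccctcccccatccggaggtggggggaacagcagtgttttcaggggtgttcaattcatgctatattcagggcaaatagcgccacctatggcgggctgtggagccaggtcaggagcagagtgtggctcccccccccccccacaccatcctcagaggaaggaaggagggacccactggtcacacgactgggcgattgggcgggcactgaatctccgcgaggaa
The counts are per gene, so transcripts from both starts of Cdkn1a, and of Cdkn2c, are summed, and the p16 and ARF transcripts of Cdkn2a cannot be told apart. The GC box GGGCGG, searched on both strands, was present in the windows of all 6 genes, though not in that of the upstream Cdkn1a start or in that of 1 Cdkn2c start, and in 35.7% of all windows. TATAAA was in 13.6% of all windows and in none of the windows of the 6 genes.

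Total counts ran from 30660265 to 36492134 per library. The 4 libraries of siRNA210, siRNA596 replicate 1 and both NC replicates were compared first, because the library labelled siRNA596 replicate 2 stood apart. In that library Gas5, the targeted gene, had 4727 counts against 3178 and 2916 in the NC libraries, 2134 with siRNA210 and 2357 in siRNA596 replicate 1, so it went against the label. Gas5 had a log2 fold change of -0.41 (SE 0.11) with the 4 libraries and 0.29 (SE 0.53) with all 5. The median change in that library followed transcript length, from 0.80 on the log2 scale in the shortest of 10 equal bins of genes to -1.11 in the longest. Of 12 neuronal markers, Map2, Dlg4, Eno2 and Tubb3 had at least 497 counts in every library, whereas Nefl, Nefm, Snap25 and Dcx had 0 counts throughout. The 6 fibroblast markers summed to between 3994 and 5512 CPM (counts scaled to library size), and the neuronal markers to between 191 and 287. Among the fibroblast markers, Col1a1 had the most counts, between 78569 and 157995 a library, whereas Lum had 0 counts throughout and Dcn at most 28. Astrocyte, oligodendrocyte and microglia markers each summed to at most 51.5 CPM.

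The 7 inhibitor genes were expressed at very different levels. Per kilobase of annotated exon (RPKM), the NC mean was 294 ± 4.06 (SD, n = 2) for Cdkn2a, which was 67.1% of the summed level of the 7 genes and above that of 99.4% of the genes tested. Cdkn2c followed at 54.5 ± 5.14 RPKM (SD, n = 2) and Cdkn2d at 32.5 ± 3.52 RPKM (SD, n = 2). Transcripts of these INK4 genes, though not of Cdkn2b, thus led the list.
Below them, Cdkn1b stood at 21.9 RPKM and Cdkn2b at 21.5 ± 2.07 RPKM (SD, n = 2), which did not differ beyond the spread of Cdkn2b. Cdkn1a, at 13.7 ± 6.86 RPKM (SD, n = 2), was below these in both NC libraries, at 18.6 and 8.88 RPKM. Its place depends on the length used, since its annotated exons cover 3553 bases but its longest annotated transcript only 2080. For Cdkn1b (4552 bases) and Cdkn2b (1390 bases) both lengths are the same. Levels per longest transcript were not compared. Cdkn1c was last at 0.114 ± 0.0353 RPKM (SD, n = 2), a level exceeded by most genes tested, since only 4.02% lay lower. Together the INK4 genes made up between 90.3% and 92.9% of the summed RPKM in the 4 libraries. This share counts all transcripts of Cdkn2a, of which those for p16 and for ARF, a protein unrelated to p16, cannot be told apart. The part of p16 in it is therefore not known.
Cdk4 and Cdk6, the kinase partners of the INK4 proteins, were at 126 and 7.08 RPKM in NC cells. Cdk2, the main partner of the CIP/KIP proteins, was at 20.9 RPKM. These are levels of mRNA in bulk cultures, where fewer cells with a transcript and less of it per cell cannot be told apart.

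**Figure D1:**
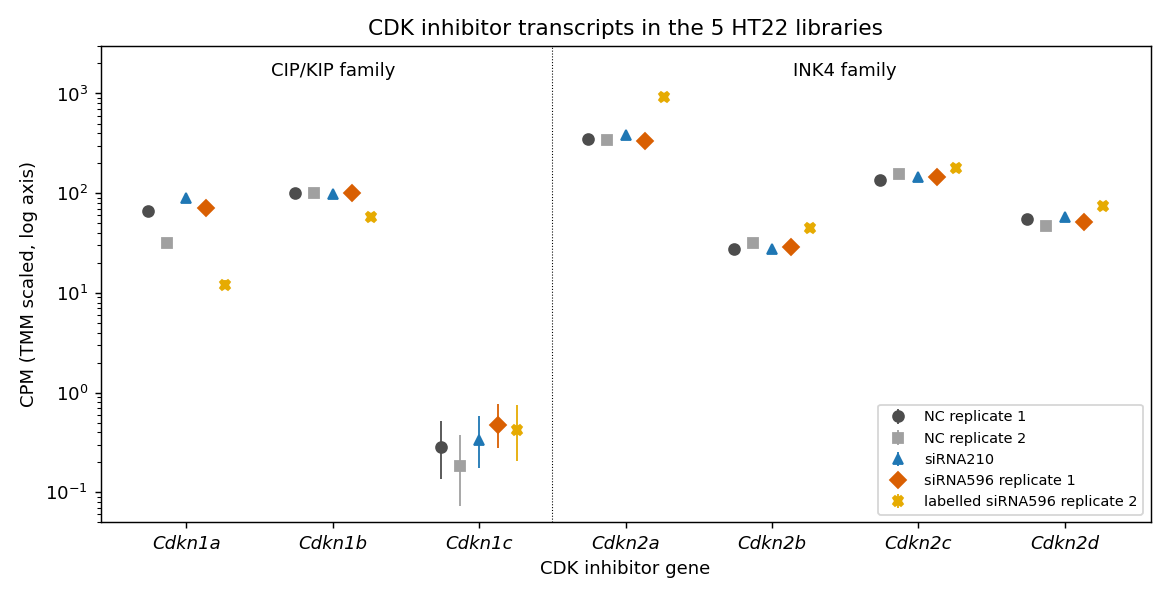
CPM after TMM scaling (log axis) of the 7 CDK inhibitor genes in each of the 5 libraries, with bars for the 95% Poisson interval of the count, which covers counting error only. Cdkn1a ran from 31.5 to 89.6 CPM over the 4 libraries, while the 5 genes Cdkn1b, Cdkn2a, Cdkn2b, Cdkn2c and Cdkn2d differed by at most 1.22-fold, and the library labelled siRNA596 replicate 2 lay lowest for Cdkn1a and Cdkn1b and highest for the INK4 genes.

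Cdkn1a (ENSMUSG00000023067, chr17:29090976-29100727, plus strand, GRCm38) encodes p21, the inhibitor that p53 induces after DNA damage. It was counted 2324 times in NC replicate 1, 1211 times in NC replicate 2, 3206 times with siRNA210 and 2529 times in siRNA596 replicate 1. In CPM these were 66.0, 31.5, 89.6 and 70.6. Both KD libraries were above both NC libraries, but siRNA596 replicate 1 lay close to NC replicate 1, and NC replicate 2 was the low library of the 4.
The NC mean was 48.8 ± 24.4 CPM (SD, n = 2) and the KD mean was 80.1 ± 13.4 CPM (SD, n = 2). The KD libraries were 1 of each siRNA, so the KD spread includes any difference between the siRNAs. The log2 fold change of KD over NC was 0.72 (SE 0.27), with a 95% interval from 0.10 to 1.33. By edgeR's quasi-likelihood test the unadjusted *P* was 0.0267 and the Benjamini-Hochberg adjusted *P* over all genes was 0.967, and DESeq2 gave an unadjusted *P* of 0.181. The change did not pass the test after adjustment.
The size of the estimate rested on NC replicate 2. It was 0.28 on the log2 scale without that library, with an interval from -0.20 to 0.75. Without the other NC library it was 1.34, with an interval from 0.82 to 1.86 and an adjusted *P* of 0.207 by edgeR. Without siRNA210 it was 0.53 and without siRNA596 replicate 1 it was 0.87. All 4 of these estimates were above 0, and those without NC replicate 2 or without siRNA210 had intervals that included 0.
Cdkn1a differed 2.09-fold between the NC libraries, and of 10535 genes averaging 5 CPM or more only 61 differed more.
In the library labelled siRNA596 replicate 2, Cdkn1a had 320 counts, or 12.1 CPM, the lowest of the 5 libraries and 24.8% of the NC mean. Its level there was 5.32-fold below the mean of the other 4 libraries, and only 158 of the 10535 genes had a lower ratio. Genes of similar transcript length had a median log2 ratio of 0.36 in that library, whereas Cdkn1a stood at -2.41.
With all 5 libraries the log2 fold change was 0.24, with a 95% interval from -1.76 to 2.23. The 3 KD libraries then lay on both sides of the NC libraries. With the siRNA596 libraries alone against NC it was -0.24 (SE 0.84).

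**Figure D2:**
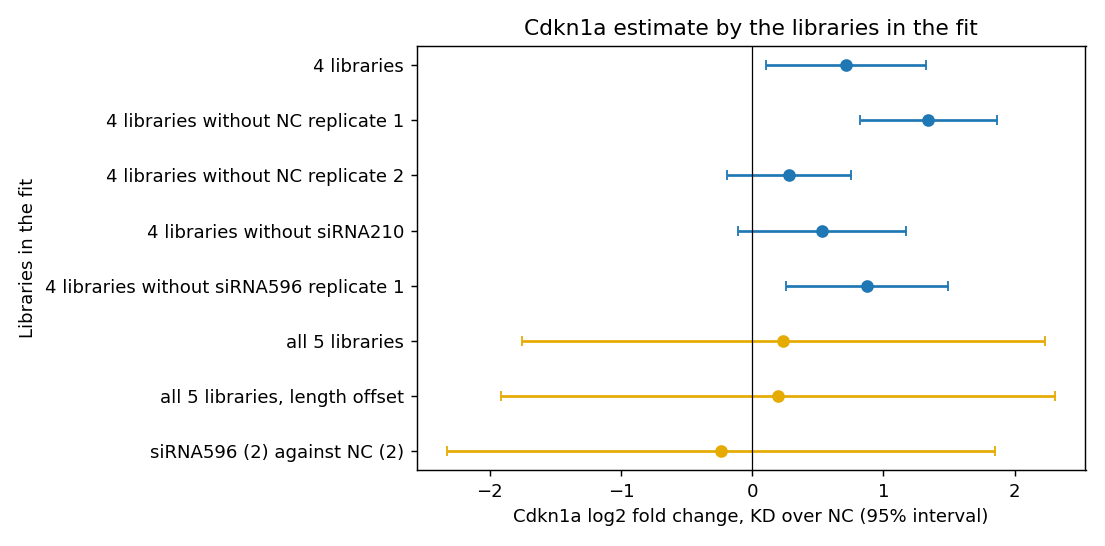
Log2 fold change of Cdkn1a, KD over NC (x axis), with its 95% interval from edgeR, for each set of libraries in the fit (y axis). The estimate ranged from 0.28 to 1.34 when 1 of the 4 libraries was left out (blue), and was -0.24 when both siRNA596 libraries were set against NC (yellow).

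Reads at the locus could come from other annotations. AC167363.2, on the opposite strand and overlapping Cdkn1a, had 18, 7, 20 and 17 counts in NC replicates 1 and 2, siRNA210 and siRNA596 replicate 1, and 0 in the remaining library. The strand setting of the counting is not given in the sources used here, so reads of a gene and its antisense partner cannot be told apart. Of the 50-base words in Cdkn1a exons, 8.49% also occur in other genes. The levels of Trp53, which encodes p53, were 244 and 244 CPM for NC, 246 CPM for siRNA210 and 236 CPM for siRNA596 replicate 1, which gave a log2 fold change of -0.02 (SE 0.077). Mdm2, a p53 target that encodes the ligase degrading p53, had a log2 fold change of 0.06 (SE 0.10). Both are levels of mRNA, and p53 activity was not tested.

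Cdkn1b (ENSMUSG00000003031, chr6:134920401-134925513, plus strand) encodes p27, which accumulates in quiescent cells. Its CPM was 99.8 and 99.8 in the NC libraries, 97.4 with siRNA210 and 101 in siRNA596 replicate 1, from counts of 3511, 3830, 3485 and 3619. These were the most even values of the 7 genes, and the groups overlapped. The log2 fold change was -0.01 (SE 0.079), with a 95% interval from -0.19 to 0.17, that is, between 0.878-fold and 1.12-fold. In the library labelled siRNA596 replicate 2 it had 1511 counts and 57.2 CPM, and the median for genes of its length also fell below 0 there, at -0.39 against -0.80 for Cdkn1b on the log2 scale. With all 5 libraries the log2 fold change was -0.23 (SE 0.30).

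Cdkn1c (ENSMUSG00000037664, chr7:143458339-143461050, minus strand) encodes p57 and is an imprinted gene. It was barely detected, with counts of 10 and 7 for NC, 12 for siRNA210, 17 for siRNA596 replicate 1 and 11 for the library labelled siRNA596 replicate 2. All 3 KD libraries were above both NC libraries in CPM, yet the counting interval of NC replicate 1, from 0.136 to 0.523 CPM, covered the values of the 3 KD libraries, the highest being 0.475 CPM. The log2 fold change was 0.79 (SE 0.68) with 4 libraries and 0.80 (SE 0.64) with 5, and both intervals included 0 and a change of 2-fold. With so few counts the estimate was imprecise, and no difference in Cdkn1c was detected. The overlapping antisense gene Gm44732, which shares 24.9% of the 50-base words of Cdkn1c, had 0 counts in every library. The strand setting of the counting is not given, so reads of this pair cannot be told apart either. Kcnq1ot1, the antisense long non-coding RNA of the same imprinted domain, was counted 733 and 1111 times for NC, 658 times for siRNA210, 611 times for siRNA596 replicate 1 and 151 times in the remaining library. Its log2 fold change was -0.49 (SE 0.16) with an adjusted *P* of 0.967 by edgeR, and -0.23 without NC replicate 2, the higher NC library.

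Cdkn2a (ENSMUSG00000044303, chr4:89274471-89294653, minus strand) encodes p16 and, in another reading frame, ARF. Its counts were 12229 and 13080 in NC, 13829 with siRNA210 and 11970 in siRNA596 replicate 1, or 347, 341, 386 and 334 CPM. The siRNA210 library was above both NC libraries and siRNA596 replicate 1 below them, so the groups overlapped. The log2 fold change was 0.06 (SE 0.090), with a 95% interval from -0.14 to 0.27, between 0.908-fold and 1.20-fold.
The library labelled siRNA596 replicate 2 had 24319 counts of Cdkn2a, or 921 CPM, 2.61-fold above the mean of the other 4 libraries. Short transcripts were generally higher in that library, with a median log2 ratio of 0.82 for genes of the length of Cdkn2a, against 1.39 for Cdkn2a itself. With all 5 libraries its log2 fold change was 0.67 (SE 0.49), with a 95% interval from -0.54 to 1.88. An offset for the trend with length brought this to 0.25 (SE 0.22).

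Cdkn2b (ENSMUSG00000073802, chr4:89306299-89311039, minus strand) encodes p15, an INK4 protein induced by TGF-β, and lies 11645 bases from Cdkn2a. It had 27.8 and 31.9 CPM in NC, 27.3 CPM with siRNA210 and 28.9 CPM in siRNA596 replicate 1. The groups overlapped. Its log2 fold change was -0.09 (SE 0.12), with a 95% interval from -0.35 to 0.18. It reached 44.3 CPM, the highest of the 5, in the library labelled siRNA596 replicate 2, and the log2 fold change with all 5 was 0.17 (SE 0.29). The longest run of bases that Cdkn2a and Cdkn2b exons share is 23, and no 50-base word of either gene occurs in another gene.

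Cdkn2c (ENSMUSG00000028551, chr4:109660876-109667189, minus strand) encodes p18. Its CPM was 137 and 156 in NC, 144 with siRNA210 and 145 in siRNA596 replicate 1, both KD libraries lying between the NC libraries. The log2 fold change was -0.02 (SE 0.089), with a 95% interval from -0.22 to 0.18. Cdkn2d (ENSMUSG00000096472, chr9:21288410-21291407, minus strand) encodes the INK4 protein p19, not to be confused with ARF. It had 55.1 and 47.3 CPM in NC, 57.8 CPM with siRNA210 and 51.7 CPM in siRNA596 replicate 1, and the groups overlapped. Its log2 fold change was 0.10 (SE 0.11), with a 95% interval from -0.15 to 0.34. Both genes were at their highest in the library labelled siRNA596 replicate 2, at 180 CPM for Cdkn2c and 73.6 CPM for Cdkn2d. In the fit of 5 libraries their log2 fold changes were 0.09 (SE 0.22) and 0.25 (SE 0.24).

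**Figure D3:**
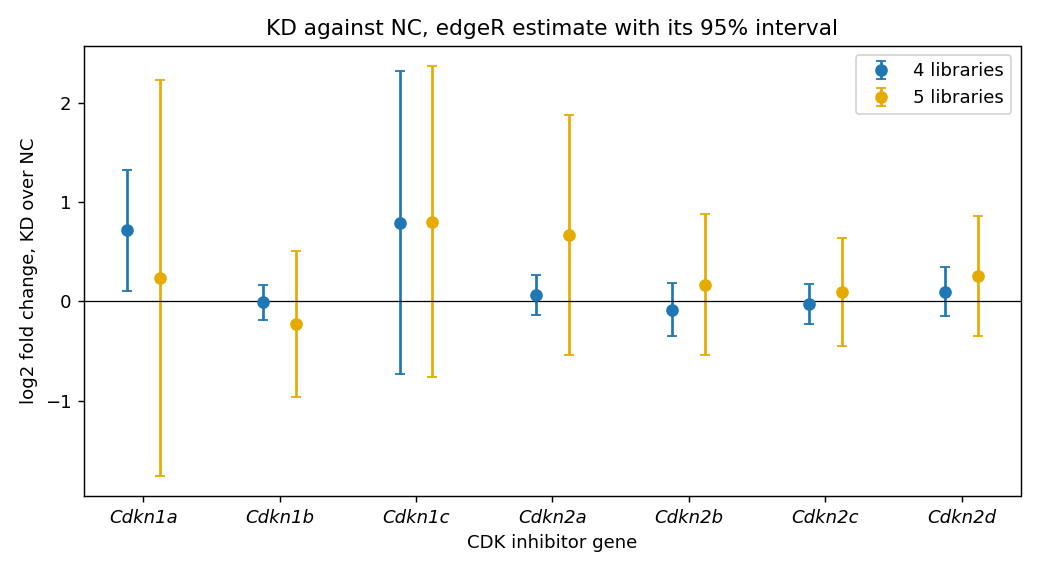
Log2 fold change of KD over NC (y axis) with its 95% interval for the 7 CDK inhibitor genes (x axis), from edgeR fits of the 4 libraries (blue) and of all 5 (yellow). With 4 libraries the interval of Cdkn1a alone left out 0, at 0.10 to 1.33, and with 5 libraries every interval included 0.

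Across the 7 genes, 1 (Cdkn1a, higher) had an unadjusted *P* under 0.05 in the edgeR fit of 4 libraries, where 3.3% of the 15867 genes tested did, and 0 of 7 did so with all 5, where 0.372% of 16142 did. All 7 genes passed the filter on low counts in both fits. With 4 libraries, 2 of 7 (Cdkn1a and Cdkn1c) had both KD libraries above both NC libraries, against 16.7% of all genes, and 0 of 7 had both below, against 16.2%. With 5 libraries only Cdkn1c had all KD libraries above NC, against 8.32% of all genes, and 0 of 7 had all below, against 9.48%. After adjustment no inhibitor gene passed, and neither did any gene in either edgeR fit (0% of genes tested), although 523 genes had an unadjusted *P* under 0.05 with 4 libraries and 60 with 5. DESeq2 called 1 gene on the 4 libraries after adjustment, Gm7336, which is named here after its values were seen. The median log2 fold change was 0.72 over the CIP/KIP genes and 0.02 over the INK4 genes, against -0.0023 over all genes. The first of these is the estimate of Cdkn1a itself, which rested on NC replicate 2. With all 5 libraries the medians were 0.24 for CIP/KIP, 0.21 for INK4 and 0.01 for all genes.

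Relative to the NC mean, the siRNA210 library and siRNA596 replicate 1 had log2 ratios of 0.88 and 0.53 for Cdkn1a, -0.04 and 0.02 for Cdkn1b, and 0.52 and 1.03 for Cdkn1c. For the INK4 genes these were 0.17 and -0.04 for Cdkn2a, -0.12 and -0.04 for Cdkn2b, -0.03 and -0.02 for Cdkn2c, and 0.18 and 0.01 for Cdkn2d. The siRNA210 library was thus the higher of the pair for Cdkn1a, Cdkn2a and Cdkn2d and the lower for the other genes. A test between the siRNAs was not made. In the library labelled siRNA596 replicate 2, 5 of the 7 genes were above both NC libraries, against 42.8% of all genes tested, and 2 of 7 were below both, against 46.9%. The share of the INK4 genes in the summed RPKM, with the ARF transcripts of Cdkn2a counted in, was 98.3% there. The part of its length trend in this share was not tested.

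**Figure D4:**
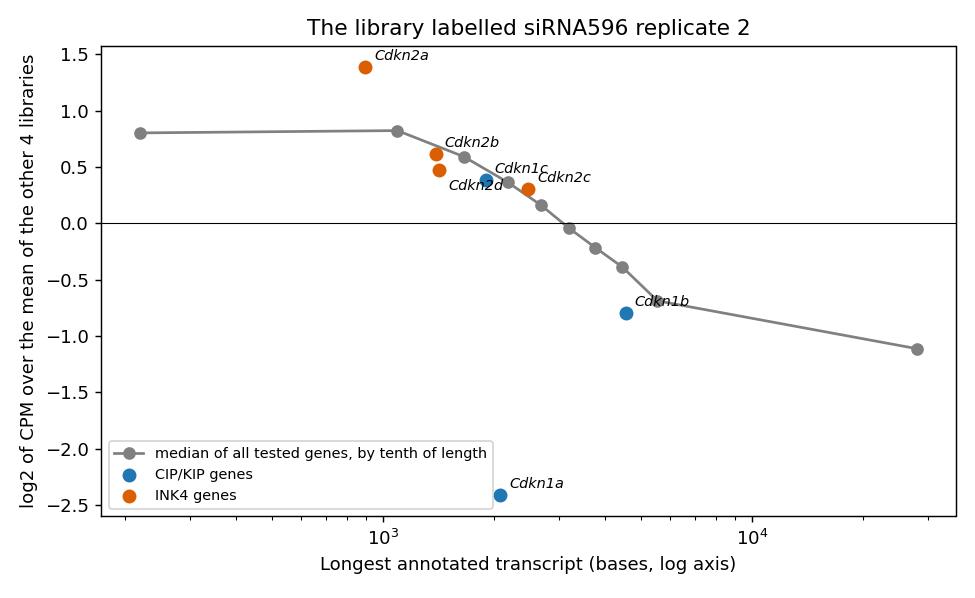
Log2 ratio of CPM in the library labelled siRNA596 replicate 2 to the mean of the other 4 libraries (y axis), against the length of the longest annotated transcript (x axis, log scale). Grey points are medians of all genes tested in 10 bins of length, falling from 0.80 to -1.11, and coloured points are the CDK inhibitor genes, of which Cdkn1a at -2.41 lay farthest from the medians and Cdkn2a at 1.39 was the highest.

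Genes that act on or through the inhibitors were read from lists. Of 12 genes for CDKs and cyclins, 0 were higher and 2 lower at an unadjusted *P* under 0.05 with 4 libraries, where 3.3% of all genes passed in either direction. These were Ccnd1, which encodes cyclin D1 (log2 fold change -0.40, SE 0.15), and Ccne1, which encodes cyclin E1 (-0.34, SE 0.15). The level of Ccnd1 was 204 and 297 CPM for NC, 182 CPM for siRNA210 and 198 CPM for siRNA596 replicate 1, so that NC replicate 2 stood apart, and without it the log2 fold change was -0.10, against -0.64 without NC replicate 1. For Ccne1 it was -0.17 without siRNA596 replicate 1, -0.20 without NC replicate 2 and -0.52 without siRNA210. The kinases themselves had log2 fold changes of 0.02 (SE 0.076) for Cdk4, -0.18 (SE 0.096) for Cdk6 and -0.03 (SE 0.078) for Cdk2.
Of 19 tested transcription regulators of the CIP/KIP genes 0 passed in either direction, and of 24 regulators of the INK4 locus 0 were higher and 1 lower. The latter was Bmi1, a Polycomb protein known to repress Cdkn2a, counted 1837 and 2651 times for NC, 1686 times for siRNA210 and 1834 times for siRNA596 replicate 1. Its log2 fold change was -0.30 (SE 0.13), -0.09 without NC replicate 2 and -0.49 without NC replicate 1. None of 17 genes for turnover of the inhibitor proteins and none of the 3 genes that only share the Cdkn name passed.
Of 18 tested senescence-associated genes 2 were higher and 0 lower. Vegfa, which encodes an angiogenic factor, had a log2 fold change of 0.44 (SE 0.19). As with Cdkn1a, its lowest count of the 4 libraries was in NC replicate 2, at 4171. Without that library its log2 fold change was 0.12, and without NC replicate 1 it was 0.86. None of these list genes passed after adjustment, and with all 5 libraries none had an unadjusted *P* under 0.05.

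The genes next to the inhibitor loci gave no calls. Of 14 neighbouring or overlapping genes 7 were tested, none had an unadjusted *P* under 0.05, and their log2 fold changes ran from -0.12 to 0.58, the highest being that of AC167363.2. Mtap, the neighbour of Cdkn2a that is often lost together with it in tumours, was counted between 7129 and 7830 times in every library. In CPM, Mtap was between 199 and 211 in the 4 libraries of the main fit and at 270 in the library labelled siRNA596 replicate 2. Srsf3, beside Cdkn1a, had between 11352 and 13633 counts over the 5 libraries. It was without the low values of Cdkn1a in NC replicate 2 or in the library labelled siRNA596 replicate 2. Its CPM was between 317 and 355 in the 4 libraries of the main fit and 504 in the library labelled siRNA596 replicate 2.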

How the data were processed

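The authors' deposited counts are whole reads per gene, without normalization, made with Trimmomatic, HISAT2 2.1.0 (GRCm38), SAMtools 1.7 and featureCounts 2.0.1 as given by the study's methods and the submitters' processing notes. Strand setting and handling of multimapping reads are not given in the sources used here. The authors' second table, from DESeq2 1.26.0, holds their own fold changes and *P*-values, which were not used. Only its mean signal per gene, deposited as counts divided by size factors, was read, to find its libraries: recomputed means differed by at most 0.0977% without the library labelled siRNA596 replicate 2, and by up to 345% with all 5.

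Counts were scaled by TMM, filtered with filterByExpr and tested by quasi-likelihood in edgeR 4.0.16 (R 4.3.3), over 15867 genes (4 libraries) or 16142 (all 5), with Benjamini-Hochberg adjustment. Fold changes are those edgeR reports. Standard errors are the absolute log2 fold change divided by the square root of edgeR's F statistic. The 95% intervals use edgeR's total degrees of freedom, which include those gained by sharing information across genes (9.14 for the inhibitor genes with 4 libraries). DESeq2 1.42.0 was an alternative. CPM used TMM factors over all 5 libraries, and RPKM the exon length of each gene in GENCODE M21 (GRCm38), which named 99.5% of identifiers. Poisson intervals cover counting error only. Scripts were tested on simulated data. Other alternatives were other scalings and filters, each library left out, siRNA596 alone with and without a replicate block, and an offset for transcript length.

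Named genes were the 7 inhibitors, Gas5, Cdk2, Cdk4, Cdk6, Trp53, Kcnq1ot1, up to 2 genes in each direction per list with the smallest unadjusted *P* under 0.05, loci next to or overlapping the inhibitors, and the 3 genes most like Cdkn1a. Mdm2 was added after its values were seen. The values of 1 gene named by this rule are not reported here. Members, lists and the choice of 4 libraries were made with earlier results of these data known. Promoter windows are from RefSeq (GRCm38.p6). Python 3.11.15 with matplotlib 3.10.9 drew the figures. Protein assays were not analysed here.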

Additional observations from a re-analysis of the deposited data

Results flagged for a closer look

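The library labelled siRNA596 replicate 2 was outside the main comparison, and 5 of the 7 CDK inhibitor genes were higher there than in both NC libraries, as were 42.8% of all genes tested. The log2 ratio of CPM to the NC mean was 1.42 for Cdkn2a, 0.84 for Cdkn1c, 0.57 for Cdkn2b, 0.52 for Cdkn2d and 0.29 for Cdkn2c. Cdkn1c rests on 11 counts. The other two, Cdkn1a and Cdkn1b, were lower there, with log2 ratios of -2.01 and -0.80. In that library Gas5 went against the label and changes across genes followed transcript length, whose part in these values was not tested beyond the offset for length.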

How the results depend on the processing

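No inhibitor gene passed an adjusted *P* of 0.05 in the 4-library fit or in any of the 13 alternatives that gave it a value. Cdkn1c had none under the filter of at least 10 counts in every library. The estimate for Cdkn1c rests on 7 to 17 counts a library. The estimates changed sign as follows, and the cause was not tested. With all 5 libraries the log2 fold change was 0.17 for Cdkn2b and 0.092 for Cdkn2c, and with the offset for length it was -0.0090 for Cdkn2d. With siRNA596 alone it was -0.24 for Cdkn1a, 0.30 for Cdkn2b and 0.15 for Cdkn2c, and with the replicate block -0.63, 0.27 and 0.15. Labels share replicate numbers but give no batch, so the numbers were not taken as pairs in the main fit. Leaving out 1 of the 4 libraries, where the lone library is assumed to vary like the other group, gave ranges of 0.28 to 1.34 for Cdkn1a, -0.039 to 0.015 for Cdkn1b, -0.045 to 0.16 for Cdkn2a, -0.18 to 0.018 for Cdkn2b, -0.12 to 0.079 for Cdkn2c, -0.0082 to 0.21 for Cdkn2d, -0.054 to 0.0059 for Cdk2, -0.0031 to 0.039 for Cdk4 and -0.052 to 0.0079 for Trp53. Of the other genes, Gas5 was 0.29 with 5 libraries, 0.56 with siRNA596 alone, 0.39 with the block and 0.15 with the offset. For Trp53 these values were 0.23, 0.33, 0.29 and 0.23. Ccne1 was 0.18, 0.34 and 0.18 under the first 3 of these, Vegfa -0.30 and -0.63 with siRNA596 without and with the block, Cdk6 0.38 and Kcnq1ot1 0.031 with the offset, and Cdk4 -0.0020 with library size only. Including the library labelled siRNA596 replicate 2 moved the KD mean CPM to 57.4 for Cdkn1a, 85.2 for Cdkn1b, 547 for Cdkn2a, 33.5 for Cdkn2b, 156 for Cdkn2c and 61.0 for Cdkn2d. With library size in place of TMM, Cdkn1b was 103.6, 105.0, 99.7 and 104.8 CPM in the 4 libraries, and in the remaining library Cdkn1b was 49.3, Cdkn2a 793, Cdkn2b 38.2, Cdkn2c 154.7 and Cdkn2d 63.4 CPM. Genes that passed both a 2-fold change and an unadjusted *P* of 0.05 numbered 139 in the 4-library fit, 67 with DESeq2, 282 without a filter, 73 with at least 10 counts in every library, 57 with 5 libraries, 53 with the offset, 41 with siRNA596 alone, 426 with the block, and 125 to 374 with 1 library left out, the highest without NC replicate 1. Genes past an adjusted *P* of 0.05 numbered 0 in the 4-library fit, 1 with DESeq2, and 0 to 1 with 1 library left out (Gm9242 without siRNA210, named after its values were seen).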

Other observations

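Over the 5 libraries, the genes whose pattern of log2 CPM was most like that of Cdkn1a, by the root mean square difference after centring each gene, were Gm43909 (0.0707), Unc13b (0.0768) and Hspa1a (0.0818). Hspa1a, which encodes an inducible HSP70 chaperone, had 141 and 69 counts in NC, 181 with siRNA210, 146 in siRNA596 replicate 1 and 20 in the library labelled siRNA596 replicate 2. Unc13b, a gene of synaptic vesicle priming, had 40 and 20 counts in NC, 55 and 49 in the same KD libraries and 4 in the remaining library. Gm43909 had at most 21 counts in a library, so its likeness rests on few reads. The likeness of Unc13b and Hspa1a also rests on few reads in the library labelled siRNA596 replicate 2. The measure used 5 libraries of these data, and no test was made.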
